A study of Rattus norvegicus with 36 samples.

Results

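This account covers serum exosomal RNA of rats that took heroin or saline, 12 of the 36 small RNA libraries of a series that also holds brain tissue. The 12 members are all libraries labelled as serum, 6 from the heroin group (rats 1 to 6) and 6 from the saline group (rats 7 to 12), and every row of the count table was used. Both groups were adult male Sprague Dawley rats, 8 weeks old on arrival, and no genetic change is given in the labels. Heroin rats worked for intravenous heroin at 0.075 mg/kg per infusion during 6 hours a day in 10 daily sessions. Saline rats had the same jugular catheter surgery and took saline instead. All rats had 1 week to settle in and 1 week to recover from surgery, and their death followed the last session by at most 60 min. Trunk blood was left to clot, the serum was spun off, and its exosomal RNA was extracted with the SeraMir kit. Inserts of 18 to 40 bp were sequenced. The comparison asks which circulating miRNAs differ in level after heroin self-administration. Heroin intake per rat, a yoked control and a later time point are not described in the labels used here, so the groups differ in everything that accompanies taking the drug.

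MicroRNAs are RNAs of about the insert length that load into Argonaute proteins and pair with messenger RNAs, mainly through the seed, the bases near the 5′ end that decide which targets are recognised. A hairpin precursor gives a 5p and a 3p arm, which carry different seeds. Cells release miRNAs inside vesicles such as exosomes, on lipoproteins and bound to protein, so that serum holds a mixture of miRNAs from red cells, platelets, leukocytes, vessel wall, liver, muscle and other tissues. Blood that clots also releases the content of platelets and damaged blood cells. A level in such a bulk sample cannot tell fewer vesicles of a type from less RNA in each.

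The mature sequences below are those that the results turn on, from RefSeq (assembly GRCr8), written 5′ to 3′ with the seed, bases 2 to 8, in capitals. They are grouped by what they show: shared seeds, the 2 arms of a hairpin, and names that are reverse complements of each other.
let-7i-5p: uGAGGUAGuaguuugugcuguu
miR-98-5p: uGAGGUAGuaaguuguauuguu
let-7a-5p: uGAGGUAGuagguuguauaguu
miR-3596a: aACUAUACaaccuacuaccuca
miR-449a-5p: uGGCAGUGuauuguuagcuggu
miR-34c-5p: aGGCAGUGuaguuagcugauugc
miR-34c-3p: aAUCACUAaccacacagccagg
miR-34b-3p: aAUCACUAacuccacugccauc
miR-9a-5p: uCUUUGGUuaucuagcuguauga
miR-9b-3p: aUACAGCUagauaaccaa
miR-127-3p: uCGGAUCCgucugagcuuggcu
miR-129-5p: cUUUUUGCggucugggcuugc
miR-142-3p: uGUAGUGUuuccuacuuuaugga
miR-144-3p: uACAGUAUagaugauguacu
miR-148a-3p: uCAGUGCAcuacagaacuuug
Of the 594 names with a count in serum, 507 were matched to a RefSeq sequence by name. Let-7i-5p, let-7a-5p and miR-98-5p share the seed GAGGUAG of the let-7 family. MiR-449a-5p and miR-34c-5p share GGCAGUG although their genes lie on different chromosomes, 2 and 8. MiR-34c-3p and miR-34b-3p share AUCACUA. MiR-98 lies on chromosome X, and miR-142 and miR-144 both lie on chromosome 10.

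The printed miR-3596a is the exact reverse complement of let-7a-5p, and miR-9b-3p pairs over 18 bases with miR-9a-5p. In the table the names of each pair carried nearly the same counts in every serum library. Of 13 such pairs (at least 500 counts over the 12 libraries for each name, differing by at most 5%), 2 were exact reverse complements and 11 overlapped as reverse complements. For these 13 pairs the table does not show which strand the reads came from, and reads of a miRNA and its antisense name cannot be told apart in it. They were picked for their agreement, and not all antisense names agreed. Of 15 pairs that RefSeq places on opposite strands of the same site, with at least 500 counts for each name, 13 were within 5%. The other two were miR-29a-3p with miR-3556a, at 18311 and 4450 counts, and let-7f-5p with miR-3596d, at 253896 and 224678 counts. The second names of the 13 pairs held 4.13% to 12% of the counts of a serum library. Both names stayed in the fits, and each result on one of them stands for the pair.

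Library totals were 0.162 to 2.78 M counts in heroin rats (M, 1e+06; median 0.408) and 0.157 to 0.997 M in saline rats (median 0.456). Levels are given as CPM, the count divided by the library's own total and scaled to 1e+06. In these libraries 1 count stood for 0.36 to 6.35 CPM, and 313 to 484 names were detected in each. Thinned to the depth of the shallowest library, heroin libraries held 346.2 ± 19.3 names and saline libraries 336.5 ± 26.5 (SD, n = 6 each; difference 9.68, exact two-sided permutation p = 0.489, adjusted 0.5 over 2 such tests). No pair of libraries within a group agreed within sampling noise. Over 30 such pairs, chi-square divided by its degrees of freedom was at least 46.2. The labels call the 6 libraries of a group biological replicates, and the p-values measure the spread between them.

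MiRNAs typical of blood were present in all 12 libraries. Red cell miRNAs stood among the leading names: miR-451-5p ranked 9 and miR-486 10 by mean share. The liver miRNA miR-122-5p had between 1881 and 16669 CPM, and the leukocyte miRNA miR-223-3p between 285.9 and 1006 CPM, against a brain mean of 0.911 CPM in the same table. The neuronal miRNA miR-124-3p was detected at 23.3 CPM or less in any serum library. Its brain mean was 943 CPM, and saline 11 held it at 2.47% of that. Members of the neuron-enriched list differed widely in serum. MiR-137-3p had no count, whereas miR-9a-5p reached 3195 CPM in saline 11 and miR-128-3p held 1.07% to 4.68% of counts. MiRNA levels alone do not show whether the RNA came from exosomes.

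A few miRNA names held most of the counts in serum. Antisense names that repeat another name are counted separately here, so fewer distinct miRNAs give these shares. Averaged over the 12 libraries, 7 names gave 50% of the counts, 43 names gave 90% and 123 names gave 99%, while 267 of the 861 names had no count in serum at all. MiR-148a-3p was the leading name with 20.4% of counts on average. Its level ran from 111979 to 381390 CPM in heroin rats (median 209782) and from 132440 to 253734 CPM in saline rats (median 170797). The ranges overlapped, and the heroin rats spread the most, with both the lowest and the highest library. Let-7i-5p followed, with 56140 to 113162 CPM in heroin rats (median 87869) and 81792 to 187492 CPM in saline rats (median 113308). Every heroin library lay below the saline median of let-7i-5p, but not below every saline library. That median falls in a gap between saline rats 10 to 12 and saline rats 7 to 9. Saline rats 7 to 9 had at least 131035 CPM, above all heroin libraries, while heroin libraries lay on both sides of saline rats 10 to 12.

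**Figure D1:**
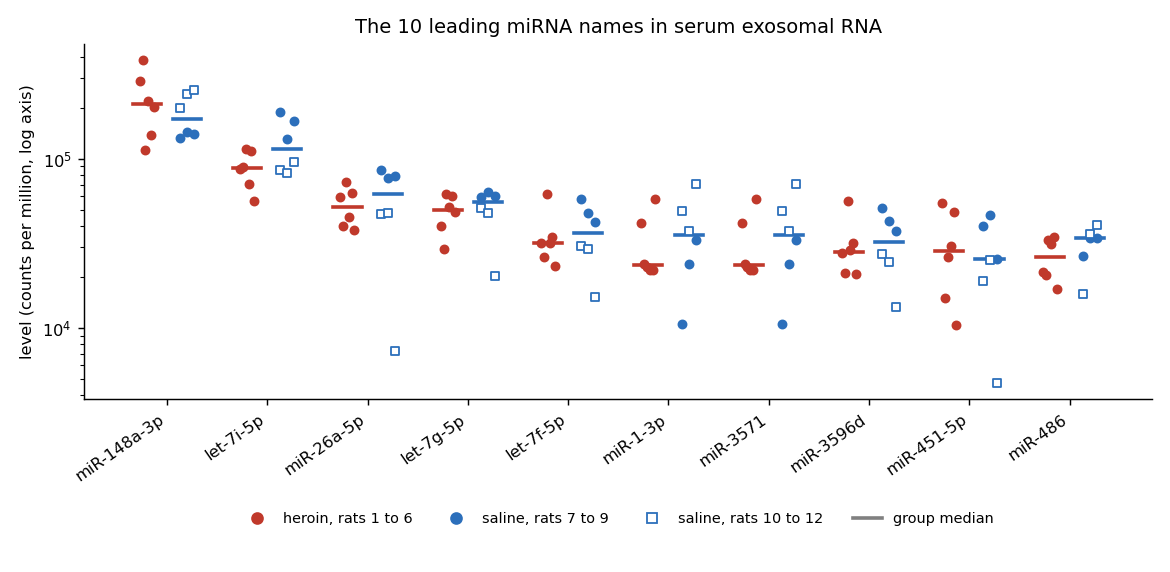
Level of the 10 leading miRNA names in each of the 12 serum libraries, in CPM on a log axis, with heroin left of saline within each name; filled blue points are saline rats 7 to 9, open squares saline rats 10 to 12, and bars are group medians. The groups overlap for all 10 names, and miR-1-3p and its antisense name miR-3571 show the same values.

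The let-7 seed GAGGUAG and the seed CAGUGCA were the most abundant, and their order differed between sets of libraries. Let-7 held more in saline rats 7 to 9 and in the mean over all 12 libraries, whereas CAGUGCA held more in the mean of heroin rats and of saline rats 10 to 12. The 9 let-7 names took 20.1% ± 4.81 of counts in heroin rats and 24.6% ± 8.18 in saline rats (SD, n = 6 each). The spread within saline was not even. Heroin libraries held 14.9% to 28.1%, saline rats 7 to 9 held 28.2% to 35.4%, and saline rats 10 to 12 held 14.7% to 19.1%. The 3 names with the seed CAGUGCA (miR-148a-3p, miR-148b-3p and miR-152-3p) took 22.5% ± 9.88 in heroin rats and 18.7% ± 5.26 in saline rats. Heroin libraries held 11.4% to 38.3%, saline rats 7 to 9 held 13.6% to 14.6%, and saline rats 10 to 12 held 20.1% to 25.5%. MiR-26 names, with the seed UCAAGUA, took 4.10% to 7.78% in heroin rats, against at least 8.10% in each of saline rats 7 to 9 and 0.763% to 5.06% in saline rats 10 to 12. The muscle seed GGAAUGU of miR-1 and miR-206 took 5.21% ± 2.46 in heroin rats and 5.69% ± 3.46 in saline rats. The share of the 10 leading names was 59.8% ± 6.62 in heroin rats and 61.9% ± 3.43 in saline rats (difference -2.09 percentage points, exact two-sided permutation p = 0.5).

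The saline libraries differed widely among themselves, which touches every comparison that follows. Over the 153 names with a mean of at least 100 CPM, the median coefficient of variation was 36.9% among the heroin libraries and 47.8% among the saline libraries. Within saline rats 7 to 9 it was 20.2%, and within saline rats 10 to 12 it was 43.7%. Saline rats 10 to 12 were thus not a tight set and varied nearly as much as all saline libraries together. Chi-square divided by its degrees of freedom was 122.6 between saline 10 and saline 11. Between saline 12 and these it was 405.8 and 416.5. In a limma-voom fit with library weights, saline 12 had a weight of 0.168, the lowest of the 12. Its mean correlation with the other libraries was also the lowest, 0.863.

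Saline rats 10 to 12 stood apart by brain-rich miRNAs, but not by these alone. The summed vascular level, given below, was also highest in them. All 3 lay above the other 9 libraries for 10 of the 229 names tested (4.37%), and 9 of these 10 had more than 1000 CPM in the brain libraries of the series, as had 65 of all 229 tested (28.4%). Of the 10 names, 2 are antisense names that repeat another of them, and both are among the 9. The 3 libraries were picked with earlier results of these data known, so these counts are a description and not a test. All 3 lay below the other 9 for 2 of the 229 names (0.873%), miR-184 and miR-30a-3p. MiR-9a-5p, among the most abundant miRNAs of neurons and their progenitors, had 70.9 to 146.4 CPM in heroin rats (median 89.4), against 133.4, 38.1 and 39.3 CPM in saline rats 7 to 9 and 1068, 3195 and 766 CPM in saline rats 10 to 12. Its brain mean was 153180 CPM. Saline 11 thus held miR-9a-5p at 2.09% of its brain level, saline 10 at 0.697% and saline 12 at 0.50%. The other 9 libraries held at most 0.0955%.

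MiR-127-3p belongs to the imprinted Dlk1-Dio3 cluster, which neurons express strongly. It had 61.6 to 162.6 CPM in heroin rats (median 95.7). Its level was 38.1, 56.2 and 55.9 CPM in saline rats 7 to 9 and 387.9, 760.4 and 468.4 CPM in saline rats 10 to 12. MiR-129-5p, a neuronal miRNA, had 18.5 to 87.3 CPM in heroin rats, against 6.35 to 10.3 CPM in saline rats 7 to 9 and 143.4 to 417.5 CPM in saline rats 10 to 12. For both, heroin libraries lay between the low and the high saline set and overlapped neither.

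The excess of brain-rich names was not uniform. For a wider view, the 20 miRNAs with the highest brain means were taken whose brain mean was more than 10 times their mean over heroin rats and saline rats 7 to 9, counting antisense pairs once. That choice used the level in 9 of the serum libraries, so the following counts are a description. Saline 11 lay above those 9 libraries for 16 of the 20, saline 10 for 13 and saline 12 for 10, and all 3 did for 8. The highest of all 12 libraries was saline 11 for 11 miRNAs, saline 10 for 5, saline 12 for 3 and saline 7 for 1, and a heroin library for none. MiR-7a-5p, named here after its values were seen, has 52699 CPM in brain and was not raised in the 3 libraries, with 2430 to 3809 CPM there and 1358 to 7909 CPM in the other 9. MiR-124-3p had 14.1, 23.3 and 6.64 CPM in saline rats 10 to 12 and 0 to 16.3 CPM elsewhere. What set these 3 libraries apart was not tested.

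**Figure D2:**
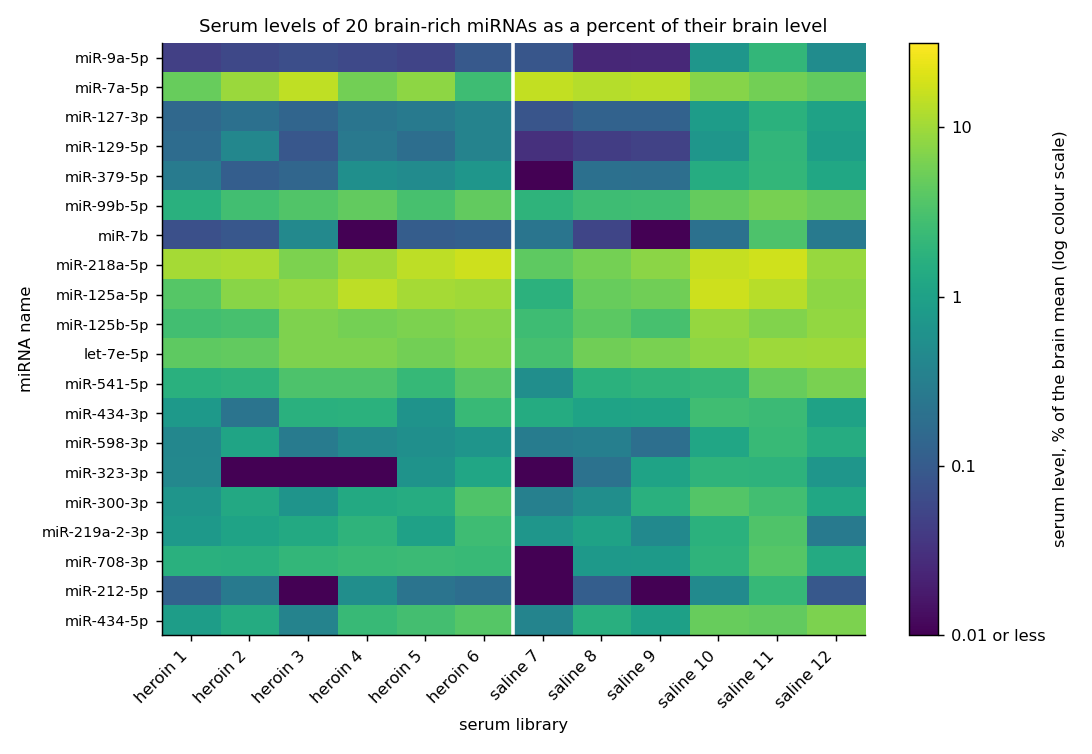
Serum level of 20 brain-rich miRNAs (rows) in each of the 12 serum libraries (columns, heroin left of saline), as a percent of the miRNA's mean over the brain libraries, on a log colour scale that ends at 0.01%. The rows of miR-9a-5p, miR-379-5p, miR-129-5p and miR-127-3p are brighter in saline 10, 11 and 12 than in the other 9 columns, whereas that of miR-7a-5p is not.

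Saline rats 7 to 9 also stood apart, mostly by other names. All 3 lay above the other 9 libraries for 7 of the 229 tested names (3.06%): let-7i-5p, miR-98-5p, miR-26a-5p, miR-148b-3p, miR-142-3p, miR-144-3p and miR-144-5p. They lay below the other 9 for 9 names (3.93%): miR-34c-3p, miR-223-5p, miR-375-3p, miR-320-3p, miR-152-5p, miR-127-3p, miR-129-5p, miR-708-3p and miR-99a-5p. Of the 7 names above, 3 had more than 1000 CPM in the brain libraries, as had 4 of the 9 below. These 4 were miR-127-3p, miR-129-5p, miR-708-3p and miR-99a-5p. Among all 229 tested names the share was 28.4%. A contrast of heroin with saline rats 7 to 9 alone therefore rests on a set that differs from the remaining saline rats as well as from heroin rats. It is given beside the full comparison because the labels put all 6 rats in 1 saline group.

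With all 12 libraries, no miRNA passed the test. In the quasi-likelihood F test of edgeR, with Benjamini-Hochberg adjustment at 0.05, 0 of 229 names tested were called (0.0%), and the smallest adjusted p was 0.124. At an unadjusted p under 0.05 stood 11 names, 4.8% of those tested, of which 4 were higher and 7 lower in heroin rats. A test with no differences at all would put 11.45 names there on average. DESeq2, and edgeR with no filter on low counts, each called 2 of 594 names, miR-9a-5p and its antisense name miR-9b-3p, both lower in heroin rats. The median log2 fold change (heroin over saline) was -0.08, and 44.1% of names were above 0. The median standard error was 0.39 on the log2 scale.

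A single miRNA separated the groups without overlap, and it belongs to the ciliated-cell list. The miR-34/449 family, which shares the seed GGCAGUG, is required for motile cilia and is rich in multiciliated epithelium and testis. MiR-449a-5p had 28.1 to 63.1 CPM in heroin rats (median 44.1). In saline rats it had 6.35, 19.1, 16.6, 8.43, 2.33 and 0 CPM, and the count of 0 in saline 12 allows up to 4.98 CPM. All 6 heroin libraries lay above all 6 saline libraries, and it was the only name of 229 without overlap between the groups (0.437%). The values rest on 221 counts in heroin rats and 32 in saline rats. Its log2 fold change was 2.14 ± 0.58 (SE), and it did not pass the edgeR test (adjusted p = 0.124). With 229 names tested, 1 name without overlap can arise with no difference between the groups.

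MiR-34c-3p ran the same way, with 22.1 to 117.1 CPM in heroin rats (median 69.1) and 6.35 to 29.9 CPM in saline rats (median 19.9). Heroin 5 lay inside the saline range, and the other 5 heroin libraries lay above it. Its log2 fold change was 1.56 ± 0.43 (edgeR adjusted p = 0.124). MiR-34b-3p, with the same seed, had 6.02 to 102.4 CPM in heroin rats and 0 to 70.3 CPM in saline rats, at 0.68 ± 0.69. The groups overlapped there.

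The 5p arm of the same hairpin did not follow. MiR-34c-5p had 40.1 to 486.4 CPM in heroin rats (median 231.3) and 72.2 to 810.5 CPM in saline rats (median 114.9), with the highest value in saline 12, at -0.21 ± 0.66. Of the 4 ciliated-cell miRNAs tested among the list's 7, 3 were above 0, none was called, and the list's median was 1.12, against -0.08 over all names. Without saline rats 10 to 12, all 4 were above 0 and the median was 1.80. Summed levels of the list ran from 96.4 to 708.1 CPM in heroin rats and from 108.0 to 893.6 CPM in saline rats, so the sums overlapped while miR-449a-5p did not.

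**Figure D3:**
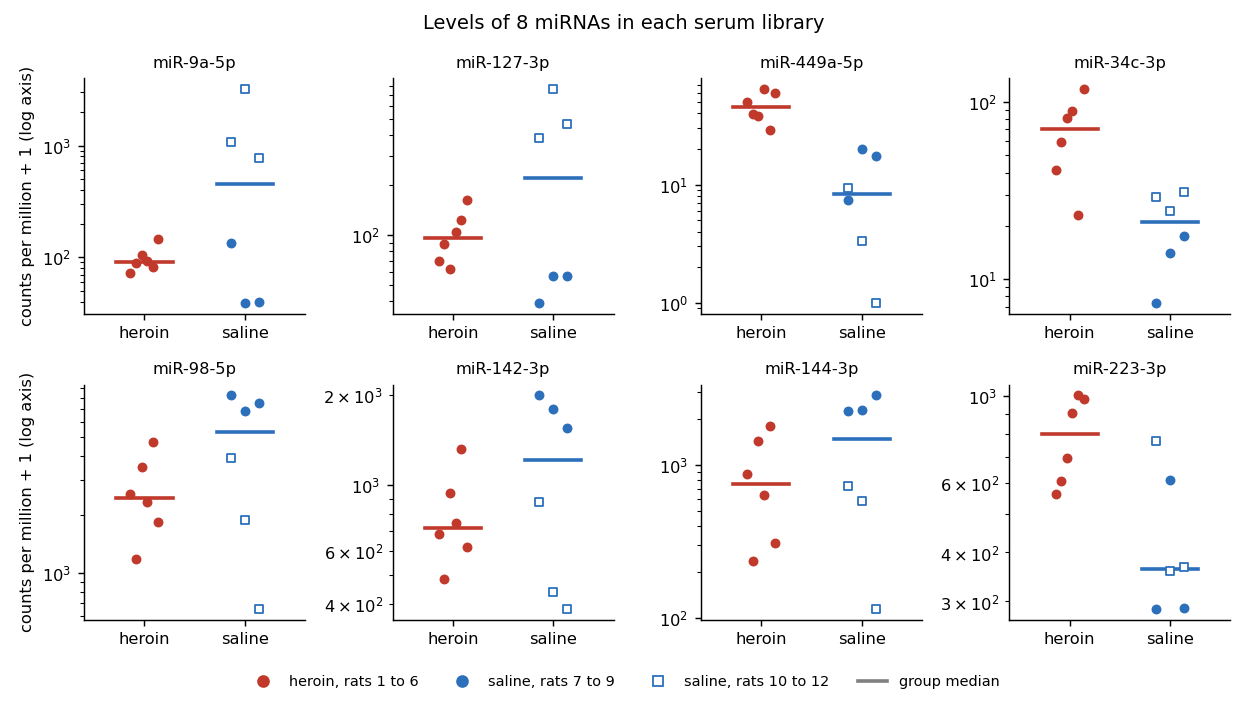
Level of 8 miRNAs in each serum library, in CPM plus 1 on log axes, heroin left of saline, with bars for group medians; filled blue points are saline rats 7 to 9 and open squares saline rats 10 to 12. MiR-449a-5p does not overlap between the groups; miR-9a-5p and miR-127-3p have 3 high saline libraries, and miR-98-5p, miR-142-3p and miR-144-3p have the other 3 saline libraries at the top.

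Neuronal miRNAs lay mostly below 0 with all libraries, with no call in the edgeR fit of the filtered table. MiR-9a-5p had a log2 fold change of -3.20 ± 0.85 (edgeR adjusted p = 0.124). It was called lower by DESeq2 (adjusted p = 0.0032) and by edgeR with no filter (adjusted p = 0.020), and it and miR-127-3p were called lower when all 36 libraries of the series shared 1 fit. Without saline rats 10 to 12 it was 0.40 ± 0.45. MiR-127-3p likewise lay on opposite sides of 0, at -1.64 ± 0.61 with all libraries and 0.79 ± 0.35 without the 3. So did miR-129-5p, at -1.37 ± 0.80 with all libraries and 2.35 ± 0.57 without them.

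Of 8 neuron-enriched miRNAs tested among 18 listed, 1 was above 0 with all libraries (median -0.69), and 5 were above 0 without the 3 (median 0.34), a share near the 58.4% of all names above 0 under that setting. MiR-137-3p, a defining member, was at 0 in all serum libraries. MiR-128-3p, which is neuronal in brain but also abundant in serum, had 15772 to 31997 CPM in heroin rats and 10744 to 46801 CPM in saline rats, at 0.00 ± 0.38. The Dlk1-Dio3 cluster, which shares miR-127-3p, miR-434-3p and miR-411-5p with the neuronal list, had 2 of 11 tested members above 0 with all libraries and 10 of 12 without the 3. Its summed level was 401 to 1216 CPM in heroin rats, against 184 to 463 CPM in saline rats 7 to 9 and 1465 to 1843 CPM in saline rats 10 to 12. MiR-379-5p (-1.28 ± 0.66 with all libraries and 1.13 ± 0.55 without the 3) and miR-434-5p (-0.89 ± 0.55 and 0.59 ± 0.52) are members with the same turn of sign.

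Leukocyte and platelet miRNAs lay mostly above 0 with all libraries, where 44.1% of all names did, and edgeR called none there. MiR-142-3p was the leukocyte member below 0, at -0.73 ± 0.42, and without saline rats 10 to 12 it was called lower. MiR-223-3p, the miRNA of neutrophils and platelets, had 564.5 to 1006 CPM in heroin rats (median 800.4) and 285.9 to 767.5 CPM in saline rats (median 361.1). All heroin libraries lay above the saline median, while saline 8 and saline 10 reached into the heroin range. Its log2 fold change was 0.71 ± 0.27 with all libraries (edgeR adjusted p = 0.547) and 0.80 ± 0.29 without saline rats 10 to 12 (adjusted p = 0.114). On those 9 libraries DESeq2 called both arms of miR-223 higher.

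Both arms of miR-223 had the same sign. MiR-223-5p was at 0.57 ± 0.39 with all libraries and at 1.12 ± 0.38 without the 3, with 486.4 to 1154 CPM in heroin rats and 306.2 to 906.9 CPM in saline rats. MiR-146a-5p, an NF-kappaB-induced brake on innate immune signalling, had 2233 to 9180 CPM in heroin rats and 1906 to 5142 CPM in saline rats, at 0.57 ± 0.30. MiR-199a-3p, abundant in platelets and mesenchymal cells, was at 0.57 ± 0.32, and heroin 6 was the highest library with 7397 CPM. Of 10 leukocyte miRNAs tested, 9 were above 0 (median 0.31), and 8 were without the 3 (median 0.31).

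Of 8 platelet miRNAs, which have miR-21-5p and miR-223-3p in common with the leukocyte list, 6 were above 0 with all libraries (median 0.36). Without saline rats 10 to 12, 6 were also above 0, but the median of 0.17 was near the 0.14 over all names. The summed platelet level was 55240 to 126338 CPM in heroin rats and 44219 to 94732 CPM in saline rats, with 4 heroin libraries above every saline library. MiR-24-3p, a further member, was at 0.36 ± 0.26. MiR-126a-3p, made in endothelium and carried by platelets, was on the other side of 0, at -0.49 ± 0.25. It had 2949 to 6446 CPM in heroin rats and 3799 to 6424 CPM in saline rats. The sums cover all members listed.

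Red cell miRNAs differed in sign with all libraries, and all 4 lay below 0 without saline rats 10 to 12 (medians -0.47 and -0.88, against -0.08 and 0.14 over all names). EdgeR called none under either setting. MiR-451-5p, processed by Argonaute 2 in maturing red cells, had 10420 to 54763 CPM in heroin rats (median 28409) and 4709 to 46406 CPM in saline rats (median 25345), at 0.15 ± 0.51, and at -0.38 ± 0.47 without the 3. MiR-486 was at -0.42 ± 0.32 and -0.45 ± 0.30. MiR-144-3p and miR-144-5p come from the same primary transcript as miR-451. MiR-144-3p had 232.7 to 1807 CPM in heroin rats, against 2242, 2287 and 2851 CPM in saline rats 7 to 9 and 725.3, 576.1 and 112.9 CPM in saline rats 10 to 12. Its log2 fold change was -0.96 ± 0.65 with all libraries and -1.71 ± 0.45 without saline rats 10 to 12 (edgeR adjusted p = 0.0673). MiR-144-5p was at -0.52 ± 0.63 and -1.30 ± 0.37 (adjusted p = 0.0935). DESeq2 called both arms of miR-144 lower without the 3. The sum of the 4 red cell miRNAs overlapped, at 28246 to 86150 CPM in heroin rats and 36217 to 84832 CPM in saline rats.

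The let-7 family, which represses growth and stem cell genes such as Lin28 and is made by most differentiated cells, lay below 0 as a whole. All 9 members tested were below 0 in heroin rats with all libraries (median -0.22, against -0.08 over all names), and all 9 were below 0 without saline rats 10 to 12 (median -0.69, against 0.14). Scaled by library size alone, 1 of the 9 was above 0 under each setting (medians -0.13 and -0.50). With all 12 libraries neither edgeR nor DESeq2 called any. Without the 3, edgeR called miR-98-5p, and DESeq2 also called let-7i-5p and let-7d-5p. Members with similar sequence can share reads, so they do not count as separate measurements.

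MiR-98-5p, which differs from the let-7 names only outside the seed, had 1178 to 4746 CPM in heroin rats (median 2428). It had 8214, 6781 and 7476 CPM in saline rats 7 to 9 and 3888, 1885 and 652.7 CPM in saline rats 10 to 12. The heroin range lay below all of the first 3 saline rats and held 2 of the other 3. Its log2 fold change was -1.02 ± 0.51 with all libraries (edgeR adjusted p = 0.744). Let-7i-5p was at -0.62 ± 0.35, let-7g-5p at -0.21 ± 0.29 and let-7f-5p at -0.21 ± 0.36.

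The epithelial miR-200 and miR-183 lists, markers of epithelium rather than of blood, were above 0 in all 9 members tested, with a median of 0.30 with all libraries and 0.81 without saline rats 10 to 12. EdgeR called none under either setting, and DESeq2 called miR-200a-3p higher without the 3. MiR-141-3p had 49.7 to 178.6 CPM in heroin rats (median 82.6) and 25.4 to 95.6 CPM in saline rats (median 33.1), at 0.72 ± 0.41. MiR-200a-3p was at 0.28 ± 0.51, miR-200c-3p at 0.58 ± 0.37 and miR-182 at 0.68 ± 0.32. The summed level was 1943 to 5677 CPM in heroin rats and 1506 to 4217 CPM in saline rats. Heroin 3, 4 and 6 lay above every saline library, and they also had the 3 highest ciliated-list sums among heroin rats, at 708.1, 586.6 and 655.3 CPM.

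MiRNAs of liver, muscle and vessels showed no shared direction that held. MiR-122-5p, the main hepatocyte miRNA, had 1881 to 7834 CPM in heroin rats (median 3581) and 2030 to 16669 CPM in saline rats (median 4943), at -0.73 ± 0.53 with all libraries. Saline 11 and saline 12 were the highest of the 12. MiR-1-3p of striated muscle had 21867 to 57917 CPM in heroin rats and 10526 to 71082 CPM in saline rats, at -0.35 ± 0.44 with all libraries and 0.37 ± 0.42 without saline rats 10 to 12. Of 6 muscle miRNAs tested, 1 was above 0 with all libraries and 6 without the 3. Of 7 vascular miRNAs, 2 were above 0 with all libraries and 4 without the 3. The summed vascular level was 8151 to 16613 CPM in heroin rats and 10590 to 12309 CPM in saline rats 7 to 9. In saline rats 10 to 12 it was 16766 to 18174 CPM, above all other libraries.

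The remaining lists had medians from -0.23 to 0.33 with all 12 libraries, against -0.08 over all names, and no edgeR call. The miR-17 cluster with its paralogs, which promotes cell growth, had 7 of 11 above 0 (median 0.12), and 3 of 11 without saline rats 10 to 12 (median -0.32). The miR-30 family had 4 of 7 above 0 with all libraries and 1 of 7 without the 3 (median -0.39). The miR-103, miR-107, miR-15 and miR-16 list had 3 of 5 above 0 (median 0.07) and 0 of 5 without the 3 (median -0.45). The miR-148 and miR-152 list had 3 of 6 above 0 under both settings (medians 0.04 and -0.02), and the miR-23, miR-27 and miR-24 list had 3 of 6 and 4 of 6 (medians 0.07 and 0.23). Both tested members of the miR-29 family were above 0 under both settings (medians 0.33 and 0.53). Of 3 liver miRNAs, 1 was above 0 with all libraries (median -0.12) and 2 without the 3 (median 0.08). Only 1 member each of the oligodendrocyte (0.33), pancreas (0.05) and choroid plexus (-0.23) lists was tested with all libraries, and miR-216a-5p and miR-216b-5p of pancreas were at 0 throughout. Scaling by library size alone moved the median of all names to 0.05 with 12 libraries, and put the liver median at 0.05. It put the miR-148 and miR-152 median at 0.17 without saline rats 10 to 12, and RLE scaling put the miR-30 median at -0.03 with all libraries. The medians of the other lists with at least 3 tested members kept their side of 0 under these scalings.

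Several further names had small unadjusted p-values with all 12 libraries, and edgeR called none of them. MiR-30c-2-3p, the passenger arm of a miR-30c hairpin, had 6.16 to 28.1 CPM in heroin rats and 19.9 to 76.2 CPM in saline rats, at -1.22 ± 0.43 (edgeR adjusted p = 0.508). MiR-148a-5p, the minor arm of the hairpin that gives the leading name of serum, had 44.2 to 84.3 CPM in heroin rats and 32.7 to 140.6 CPM in saline rats, at -0.96 ± 0.37. MiR-652-3p was at -0.77 ± 0.31 and miR-195-3p at -0.99 ± 0.40. MiR-330-3p was at 0.78 ± 0.35, and miR-185-5p, miR-361-5p and miR-425-5p were at 0.61 ± 0.31, 0.55 ± 0.26 and -0.71 ± 0.35. The predicted name novel_644 was at -1.19 ± 0.56, with 80.0 to 620.5 CPM in heroin rats and 313.9 to 1262 CPM in saline rats. For each of these, libraries of both groups overlapped.

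Setting saline rats 10 to 12 aside left 6 heroin and 3 saline libraries. These 3 were chosen because their levels were known to differ, so the p-values are not those of an independent choice of libraries. Under that setting edgeR called 2 of 255 names (0.784%), both lower in heroin rats: miR-98-5p and miR-142-3p. At an unadjusted p under 0.05 stood 55 names (21.6%), 29 higher and 26 lower in heroin rats, where a test with no differences would put 12.75. The groups did not overlap for 18 of 255 names (7.06%), 11 higher and 7 lower. The median log2 fold change was 0.14, and 58.4% of names were above 0.

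MiR-98-5p fell by 1.71 ± 0.34 on the log2 scale (edgeR adjusted p = 0.0189), with 2689 ± 1272 CPM in heroin rats and 7490 ± 717 CPM in saline rats 7 to 9 (SD, n = 6 and 3). MiR-142-3p, a miRNA of all blood cell lineages, fell by 1.38 ± 0.29 (edgeR adjusted p = 0.0189). It had 484.8 to 1315 CPM in heroin rats, against 1995, 1799 and 1548 CPM in saline rats 7 to 9 and 877.1, 438.5 and 383.7 CPM in the saline rats set aside. For both miRNAs, 2 of the 3 saline rats set aside lay below the heroin median. With all 12 libraries miR-142-3p was at -0.73 ± 0.42 (edgeR adjusted p = 0.827).

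The fold changes of both held when single libraries were left out, but the calls did not. On the log2 scale miR-98-5p ran from -1.89 to -1.58 and miR-142-3p from -1.52 to -1.27. Leaving out heroin 4, saline 7, saline 8 or saline 9 gave 0 calls, leaving out heroin 2 gave 1, heroin 3 gave 6 and heroin 5 gave 10. DESeq2 on the same 9 libraries called 21 of 579 names, 8 higher and 13 lower. Scaling by library size alone gave 3 calls and moved the median of all names to 0.35, with miR-98-5p called lower and miR-129-5p and miR-34c-3p called higher.

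**Figure D4:**
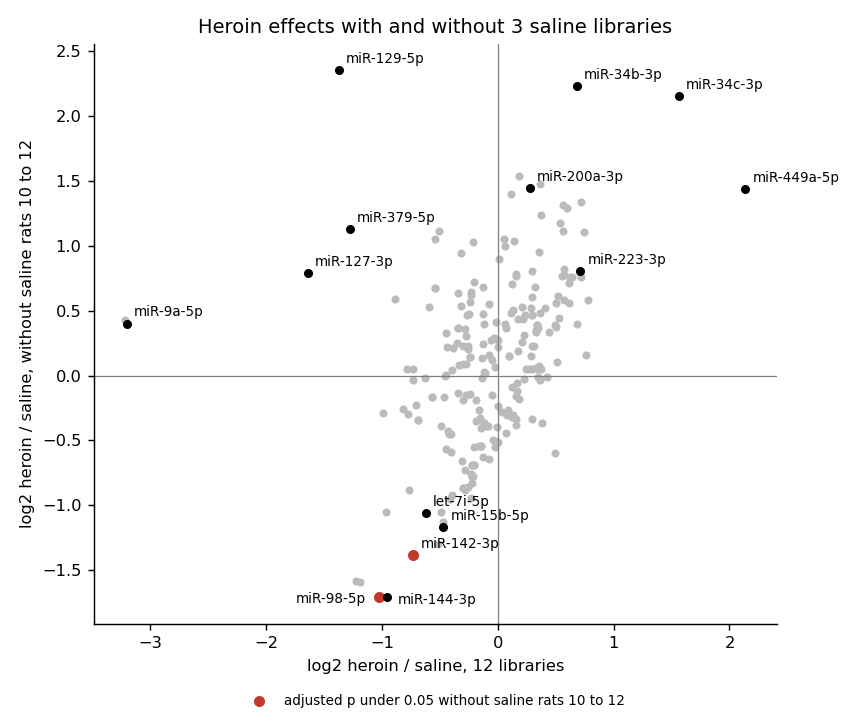
Log2 heroin over saline of each miRNA name with all 12 libraries (horizontal axis) and without saline rats 10 to 12 (vertical axis), with red points for the 2 names called under the second setting. MiR-9a-5p, miR-379-5p, miR-129-5p and miR-127-3p lie left of the vertical line and above the horizontal line, while miR-34c-3p and miR-449a-5p lie above 0 on both axes and miR-98-5p, miR-142-3p and miR-144-3p below 0 on both; the axes share 9 libraries.

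Other names did not pass in this edgeR fit. Of those that follow, DESeq2 on the same libraries called miR-15b-5p, miR-16-5p, let-7i-5p, miR-148b-3p and miR-200a-3p, and library size alone called miR-34c-3p. MiR-34c-3p was at 2.16 ± 0.55 (edgeR adjusted p = 0.062), with all 6 heroin libraries above saline rats 7 to 9. MiR-34b-3p was at 2.23 ± 0.80 and miR-449a-5p at 1.44 ± 0.47 (adjusted p = 0.114 and 0.113). MiR-15b-5p, of the miR-15/16 family that restrains the cell cycle, was at -1.17 ± 0.31 (edgeR adjusted p = 0.0673), against -0.47 ± 0.63 with all libraries. Its level was 84.6 to 252.9 CPM in heroin rats, against 279.5, 346.0 and 248.3 CPM in saline rats 7 to 9 and 165.9, 81.6 and 1.66 CPM in the others. MiR-16-5p was at -0.83 ± 0.30, let-7i-5p at -1.06 ± 0.35 and miR-148b-3p at -0.86 ± 0.29. On the higher side, miR-200a-3p was at 1.45 ± 0.43 (edgeR adjusted p = 0.096), miR-141-3p at 1.34 ± 0.43 and miR-708-3p at 1.48 ± 0.49.

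**Figure D5:**
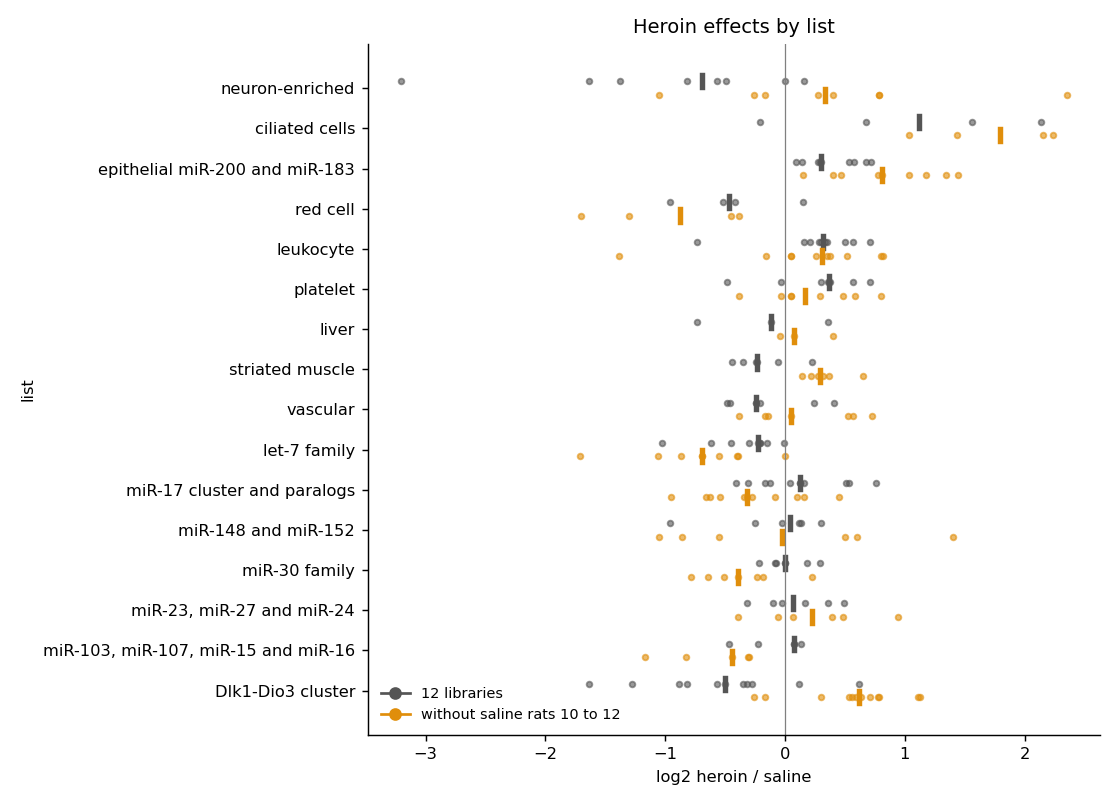
Log2 heroin over saline of the tested members (points) and median (bar) of each list with at least 3 tested members, with all 12 libraries in grey and without saline rats 10 to 12 in orange. With TMM scaling the let-7 family lies at or below 0 (with library size alone 1 member lies above) and the epithelial list above 0 under both settings, while the medians of the neuron-enriched, striated muscle and Dlk1-Dio3 lists lie on opposite sides of 0.

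The 2 arms of a hairpin had the same sign in some cases and not in others. Both arms were tested with all 12 libraries for 38 hairpins, of which 16 had arms of the same sign, and the median absolute difference between arms was 0.44 on the log2 scale. Of all 229 names 44.1% were above 0, so names paired without regard to hairpin would also often differ in sign. The median standard error of a name was 0.39. The arms were more than 1 apart for 6 hairpins, and miR-34c led with -0.21 for the 5p arm and 1.56 for the 3p arm. MiR-330 followed with -0.63 ± 0.46 for the 5p arm and 0.78 for the 3p arm. MiR-148a came next, with -0.96 for the 5p arm and 0.30 ± 0.41 for the 3p arm, which holds nearly all reads of that hairpin. MiR-142 had 0.15 ± 0.37 for the 5p arm and -0.73 for the 3p arm. Without saline rats 10 to 12 the 5p arm of miR-142 was at -0.16 ± 0.31, while the 3p arm was called lower. The difference between arms was not tested.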

How the data were processed

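Read counts per mature miRNA name were used as deposited, 1 column per library, with no replicates pooled. The authors' TPM values, per the file headers, stand beside the counts and equal count / library total × 1e+06 to a relative difference of 4.9e-15, so they have no length term and equal the CPM given here. Per the submitters' processing notes, Bowtie and the rat build rn6 were used. Not given in the sources used here are what Bowtie was used for and its version, the miRNA annotation, how multiply matching reads were counted and whether strand was used. No genome positions were used beyond RefSeq's chromosomes (GRCr8).

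Libraries were grouped from their labels. Counts were tested with edgeR 4.0.16 in R 4.3.3 (quasi-likelihood F test, TMM scaling, filterByExpr at min.count 10, Benjamini-Hochberg at 0.05 over all names tested); "called" means an adjusted p under 0.05. Standard errors are |log2 fold change| / sqrt(F). Single values per library had exact permutation tests (scipy 1.17.1). Alternatives used DESeq2 1.42.0 and limma 3.58.1; limma was also run on log2(TPM + 1) of the deposited TPM values with a mean of at least 10. The main edgeR fit was tested on simulated data. Limits at a count of 0 are 3 counts and cover counting error only. The precision is bounded by library totals from 157415 counts.

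The miRNAs, the 20 lists (160 miRNAs) and the 3 libraries set aside were chosen with earlier results of these data known. Names follow a rule: all called with or without saline rats 10 to 12, the 12 (all libraries) and 10 (without the 3) smallest p-values in each direction, the 10 leading names, up to 3 members per list with the smallest p, and a fixed panel. Other arms and names with the same seed are given as values. Leaving out the 3 libraries together, each library in turn, other scalings, filters and tools, all 36 libraries in 1 fit and repeated names counted once were alternatives. Those on the 9 remaining libraries were added after seeing the data.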

Additional observations from a re-analysis of the deposited data

Results flagged for a closer look

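Among 98 sets of 6 libraries (each named miRNA and the library totals, in each group), 8 held a library whose gap to its neighbour was a larger part of the group's range than Dixon's 95% critical value. Chance alone flags about 1 in 20 sets. Of the 8, 5 lie in saline rats 10 to 12. In saline 12, miR-34c-5p was high at 810.5 CPM and miR-142-5p and let-7g-5p were low at 858.7 and 20323 CPM. In saline 11, miR-9a-5p was high at 3195 CPM, next to 1068 CPM in saline 10. In saline 10, miR-146a-5p was high at 5142 CPM. In heroin rats, miR-199a-3p was high in heroin 6 at 7397 CPM, and let-7f-5p was high in heroin 3 at 61377 CPM. Heroin 1 had 2.78 M counts, far above the other heroin libraries. The causes were not tested.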

How the results depend on the processing

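No paired analysis was possible because heroin rats are numbered 1 to 6 and saline rats 7 to 12, so the compared groups share no number. The 0 calls of the 12 libraries held under RLE scaling, library size alone, a filter of 10 CPM in 6 libraries, limma-voom with library weights, limma on log2(TPM + 1) and repeated names counted once. Calls, all lower in heroin rats, numbered 2 without saline 10 to 12, 2 with no filter, 2 with DESeq2 and 4 with all 36 libraries in 1 fit. Leaving out single libraries gave 0 to 2, with 2 without saline 8 or saline 9. Alternatives on the 9 libraries were chosen after seeing the data. Against 2 calls there (0 higher, 2 lower), DESeq2 gave 21 (8 higher, 13 lower), library size alone 3 (2 higher, 1 lower), and leaving out single libraries 0 to 10 (0 to 5 higher, 0 to 5 lower). Library size alone moved the median of all names from -0.08 to 0.05 with 12 libraries.

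Log2 fold changes on the other side of 0 were as follows. Without saline 10 to 12, miR-9a-5p was at 0.40, miR-127-3p 0.79, miR-129-5p 2.35, miR-379-5p 1.13, miR-434-5p 0.59, miR-128-3p 0.27, miR-34c-5p 1.03, miR-142-5p -0.16, miR-451-5p -0.38 and miR-1-3p 0.37. With limma-voom weights, miR-129-5p was at 0.77, miR-379-5p 0.082, miR-34c-5p 0.47, miR-142-5p -0.14 and miR-451-5p -0.24. With limma on log2(TPM + 1), miR-129-5p was at 0.015, miR-128-3p 0.11, miR-34c-5p 0.27, miR-148b-3p 0.078, miR-144-5p 0.25, miR-15b-5p 0.53 and miR-16-5p 0.31. With all 36 libraries, miR-148a-3p was at -0.019 and miR-200a-3p at -0.27. With 10 CPM in 6 libraries miR-128-3p was at 0.011, and with library size alone miR-34c-5p was at 0.078. Leaving out single libraries, miR-128-3p ran from -0.40 to 0.28, miR-34c-5p from -0.58 to 0.96, miR-148a-3p from -0.25 to 0.48, miR-451-5p from -0.32 to 0.38, miR-142-5p from -0.041 to 0.27, let-7f-5p from -0.41 to 0.0087 and miR-1-3p from -0.69 to 0.037. Of 1098 values of named miRNAs under these settings, 1058 kept their sign. The causes were not tested.

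Depth limits low names most: in saline 7, 1 count stood for 6.35 CPM, so that levels of a few CPM rest on single reads.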
